A study of Mus musculus with 6 samples.

Results

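The genes described here are 10 members of the ATF4 pathway, the transcriptional arm of the response to amino acid shortage and protein-folding stress: Atf4, Atf5, Ddit3, Trib3, Sesn2, Chac1, Asns, Phgdh, Psat1 and Shmt2. They were taken by name from a table of 54532 genes. Of these, 13619 had a mean of at least 1 FPKM (fragments per kilobase of exon, scaled per library) and entered the test. All 10 members were among them. RNA was sequenced from bone of MIR29cb2-/- mice, in which the genomic cluster of miR-29b-2 with miR-29c is deleted (3 libraries), and of WT mice (3 libraries). All 6 libraries are labelled as C57BL/6J females at 16 weeks. The labels name neither the bone nor the fate of its marrow, give no tissue restriction of the deletion, and do not state that each library is a separate animal, and p-values therefore reflect only how these libraries vary, which may be technical.

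When amino acids run short or unfolded protein builds up in the endoplasmic reticulum, kinases phosphorylate the translation initiation factor eIF2. Most translation then slows while the mRNA of Atf4 is translated more, so that a large share of the control over ATF4 acts on protein, which RNA levels do not measure. ATF4 binds composite DNA elements together with C/EBP proteins and switches on genes for amino acid synthesis, amino acid import and tRNA charging, and under lasting stress also genes tied to cell death. In bone, ATF4 is known from mouse genetics as a regulator of osteoblasts, where it acts on osteocalcin expression and on the amino acid supply for collagen.

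The microRNAs of the deleted cluster are shown because their seed, bases 2 to 8 in capitals, is the part that pairs with target mRNAs. The sequences are those of RefSeq on GRCm38.p6. The first lies at chr1:195037091-195037113 and the second at chr1:195037600-195037621, both on the plus strand.
mmu-miR-29b-3p: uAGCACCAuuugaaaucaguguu
mmu-miR-29c-3p: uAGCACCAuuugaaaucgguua
The mature miR-29b-3p sequence is also made from Mir29b-1 on chromosome 6, and miR-29a-3p from the same chromosome carries the same seed. The 7 letters that pair with this seed, TGGTGCT, occur in an annotated 3′ UTR of 1 of the 10 members, Trib3, and of 16.3% of the 11664 tested genes with an annotated 3′ UTR. The site of Trib3, on chromosome 2, is shown with 10 bases on each side and the match in capitals.
Trib3 site: ctgtcttctcTGGTGCTggttcatggg

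The libraries held 16861800 to 20302000 recovered reads, and the members 34 to 7906 reads per library. KO replicate 1 and WT replicate 2 stood apart from the other libraries, with FPKM totals of 487102 and 489576 against 355787 to 404994. In both, levels fell with exon length relative to their group (Spearman's rho across genes of -0.45 and -0.42). In the other libraries levels rose with it (rho of 0.18 to 0.41), as deviations from a group mean offset each other. For Atf4 and the members with larger changes, results are therefore also given below without KO replicate 1 and WT replicate 2. The microRNA genes Mir29b-2 and Mir29c were listed at 0 in every library, but mature microRNAs escape this kind of library, so these zeros do not check the deletion. The host transcript A330023F24Rik had 2.51, 3.25 and 4.08 FPKM in the 3 knockout libraries, against 0.197, 0.153 and 0.136 FPKM in the WT libraries, so that transcript of the locus was higher and not lost. As bone markers, Col1a1 had 148 to 342 FPKM in knockout and 394 to 565 FPKM in WT libraries, and Bglap, the osteocalcin gene, had 132 to 414 FPKM in knockout and 446 to 1010 FPKM in WT libraries.

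To compare the genotypes, log2(FPKM + 1) was tested in limma across all 13619 genes, with p-values adjusted by Benjamini-Hochberg. Psat1, an enzyme of serine synthesis, rose in knockout bone, with 21.1 ± 2.92 FPKM in knockout and 11.7 ± 0.27 FPKM in WT bone (SD, n = 3 each). Phgdh and Shmt2, which act before and after it on the way to glycine, were higher in every knockout library than in any WT library but missed the threshold of 0.05, and Chac1 was lower in every knockout library and also missed it. The remaining 6 members, Atf4 itself included, overlapped between genotypes. Thus 1 of 10 members passed as higher and 0 as lower, where 1.34% of all genes tested passed as higher and 3.82% as lower. At an unadjusted p under 0.05 there were 4 of 10 members, where 20.6% of all genes tested were. All knockout libraries lay above all WT libraries in 3 members and in 14.7% of genes tested, and below them in 1 member and in 13.7% of genes tested. Values of this kind come from bulk tissue, in which fewer cells of a type and less RNA per cell cannot be told apart.

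**Figure D1:**
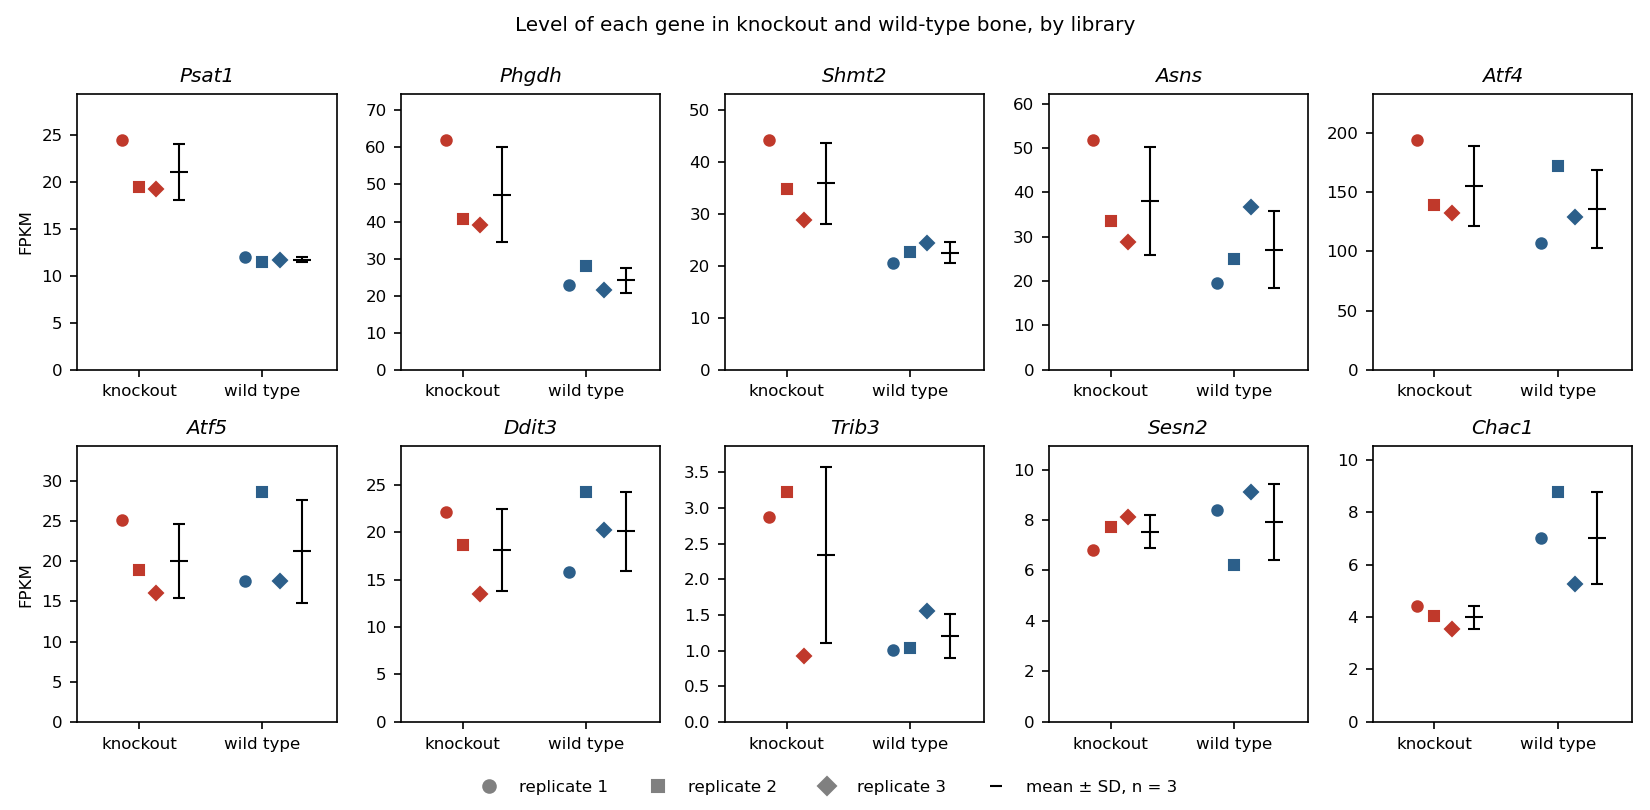
Level of each gene in FPKM (y axis, from 0, its own scale per gene) in the 3 knockout and 3 wild-type libraries, with a symbol per replicate number and the mean ± SD beside them. Psat1, Phgdh and Shmt2 lie higher in all knockout libraries, Chac1 lies lower, and the other 6 genes overlap.

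Phgdh (ENSMUSG00000053398, chr3:98313170-98339990 on mm10, minus strand) encodes phosphoglycerate dehydrogenase, which draws 3-phosphoglycerate out of glycolysis into serine synthesis. It had 62.0, 40.7 and 39.0 FPKM in knockout libraries, from 2554, 1762 and 1679 reads, against 22.9, 27.9 and 21.5 FPKM in WT libraries, from 1171, 1354 and 965 reads. The groups did not overlap, and KO replicate 1 was the highest by a wide margin. The log2 change was 0.92 with a standard error of 0.20 (95% interval 0.44 to 1.40), and the limma adjusted p was 0.0524. Without KO replicate 1 the change was 0.71 (limma adjusted p = 0.0859), and without both libraries that stood apart it was 0.82 (limma adjusted p = 0.0354), which passes.

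Psat1 (ENSMUSG00000024640, chr19:15904678-15947337, minus strand) encodes phosphoserine aminotransferase, the next enzyme of that route. Its levels were 24.5, 19.5 and 19.3 FPKM in knockout libraries and 12.0, 11.5 and 11.7 FPKM in WT libraries. The WT libraries had a coefficient of variation of 2.30%, the lowest of any group among the 10 members, and all knockout libraries were far above them. The log2 change was 0.79 with a standard error of 0.13 (95% interval 0.49 to 1.08; limma adjusted p = 0.0234), and its p ranked 233 among the genes tested. The call was lost, with a similar change, without KO replicate 1 (limma adjusted p = 0.053), KO replicate 2 (0.0842), WT replicate 1 (0.0904), WT replicate 2 (0.0565) or WT replicate 3 (0.0609). It was kept without KO replicate 3 (0.049) and without both libraries that stood apart (0.0407).

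Shmt2 (ENSMUSG00000025403, chr10:127517123-127522444, minus strand) encodes the mitochondrial serine hydroxymethyltransferase, which splits serine into glycine and a folate-bound carbon. It had 44.3, 34.8 and 28.8 FPKM in knockout libraries and 20.6, 22.7 and 24.5 FPKM in WT libraries. The lowest knockout library was close above the highest WT library, and KO replicate 1 was again the highest. The log2 change was 0.63 with a standard error of 0.17 (95% interval 0.22 to 1.04; limma adjusted p = 0.0910). Without both libraries that stood apart the change was 0.48 (limma adjusted p = 0.143). Exons of Shmt2 share 32 bases with Ndufa4l2 on the opposite strand, whose levels were 1.32 to 1.68 FPKM in knockout and 5.10 to 11.4 FPKM in WT libraries. Whether reads were counted by strand is not given in the sources used here.

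Asns (ENSMUSG00000029752, chr6:7675169-7693254, minus strand) encodes asparagine synthetase, a textbook target of ATF4. Its levels were 51.8, 33.5 and 28.8 FPKM in knockout libraries and 19.6, 25.0 and 36.6 FPKM in WT libraries. The groups overlapped, since WT replicate 3 exceeded all but the highest knockout library. The log2 change of 0.48 had a 95% interval of -0.20 to 1.15 (limma adjusted p = 0.414), which still includes a change as large as that of Phgdh. Without both libraries that stood apart the change was 0.20 (limma adjusted p = 0.729).

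Levels of the 3 transcription factors overlapped between genotypes. Atf4 (ENSMUSG00000042406, chr15:80255184-80257541, plus strand) had 194, 139 and 132 FPKM in knockout libraries and 107, 172 and 129 FPKM in WT libraries. The highest library of each group was the one that stood apart, KO replicate 1 and WT replicate 2. The log2 change was 0.19 (95% interval -0.36 to 0.75; limma adjusted p = 0.711), and 0.21 without those libraries (limma adjusted p = 0.464).

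Atf5 (ENSMUSG00000038539, chr7:44812256-44816658, minus strand), a related bZIP factor tied in other systems to the mitochondrial stress response, had the same order of libraries as Atf4 within each genotype, though not across both. It had 25.1, 18.9 and 16.1 FPKM in knockout libraries and 17.5, 28.6 and 17.6 FPKM in WT libraries. Its log2 change was -0.07 (95% interval -0.62 to 0.49; limma adjusted p = 0.914). Ddit3 (ENSMUSG00000025408, chr10:127290774-127296288, plus strand) encodes CHOP, the factor that links lasting stress to cell death. It had 22.1, 18.6 and 13.5 FPKM in knockout libraries and 15.8, 24.2 and 20.2 FPKM in WT libraries, with overlapping groups and a log2 change of -0.15 (95% interval -0.67 to 0.37; limma adjusted p = 0.764). Exons of Ddit3 share 68 bases with Mars and 13 bases with Gm4189, both on the opposite strand, and a second Ddit3 entry of the annotation (ENSMUSG00000116429) was listed at 0 throughout. Atf5 exons share 82 bases with Nup62 and Il4i1 on the opposite strand.

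Levels of Trib3 and Sesn2 also overlapped between genotypes. Trib3 (ENSMUSG00000032715, chr2:152337422-152344032, minus strand) encodes a pseudokinase that CHOP and ATF4 induce and that holds ATF4 activity back. It had 2.87, 3.22 and 0.925 FPKM in knockout libraries and 1.01, 1.04 and 1.56 FPKM in WT libraries. Both extremes of the 6 libraries were knockout libraries, from 119 reads in replicate 2 and 34 reads in replicate 3. The log2 change of 0.53 (95% interval -0.19 to 1.25; limma adjusted p = 0.399) went up to 0.88 without KO replicate 3 (limma adjusted p = 0.0674) and down to 0.32 without KO replicate 2 (limma adjusted p = 0.748). Without both libraries that stood apart the Trib3 change was 0.33 (limma adjusted p = 0.671). Sesn2 (ENSMUSG00000028893, chr4:132492032-132510501, minus strand) encodes sestrin 2, a leucine sensor that restrains mTORC1. It had 6.80, 7.73 and 8.10 FPKM in knockout libraries and 8.40, 6.22 and 9.10 FPKM in WT libraries (log2 change -0.05, 95% interval -0.41 to 0.31; limma adjusted p = 0.901). The 2 libraries that stood apart held the lowest Sesn2 levels of their groups, opposite to their place for Atf4.

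Chac1 (ENSMUSG00000027313, chr2:119351229-119354381, plus strand) encodes an enzyme that breaks down glutathione and is among the genes most readily induced by ATF4 in cultured cells. It had 4.42, 4.03 and 3.53 FPKM in knockout libraries, from 120, 115 and 100 reads, against 7.03, 8.76 and 5.25 FPKM in WT libraries, from 237, 280 and 155 reads. All knockout libraries lay below all WT libraries. The log2 change was -0.66 with a standard error of 0.18 (95% interval -1.08 to -0.24, limma adjusted p = 0.0856). Without both libraries that stood apart it was -0.57 (limma adjusted p = 0.12).

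In an exact permutation test of each member, two-sided on the mean log2(FPKM + 1) of 3 against 3 libraries, p was 0.1 for Psat1, Phgdh, Shmt2 and Chac1, the smallest that this design allows. It was 0.3 to 0.8 for the other 6.

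**Figure D2:**
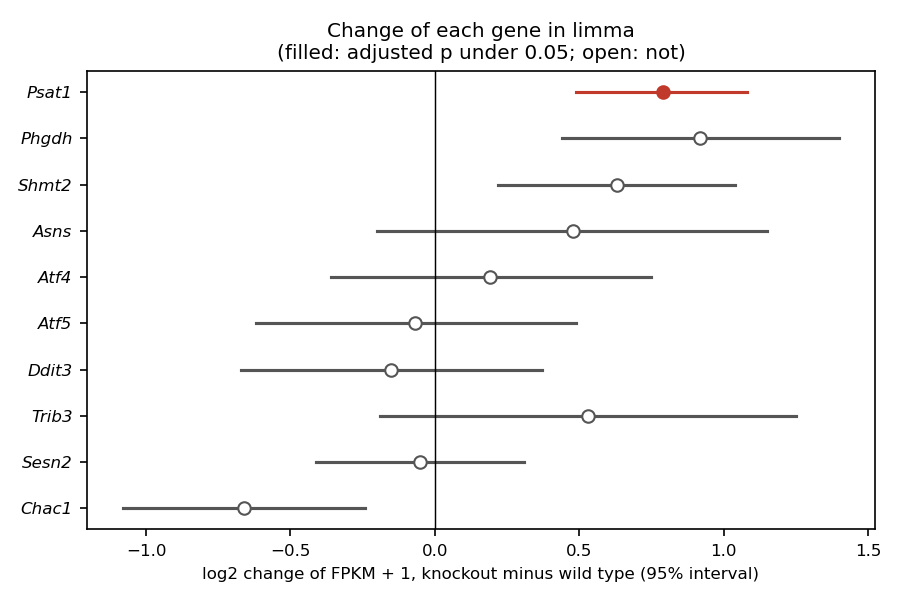
Log2 change of FPKM + 1, knockout minus wild type (x axis), for each of the 10 genes with its 95% interval from limma; the filled point passed an adjusted p of 0.05 and open points did not. The intervals of Phgdh, Psat1 and Shmt2 lie above 0 and that of Chac1 lies below it.

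Because FPKM is scaled by exon length, levels can be ordered between genes. Over all 6 libraries Atf4 was the most abundant member at a mean of 145 FPKM, and its lowest library (107 FPKM) lay above the highest of Phgdh (62.0 FPKM). Phgdh, Asns, Shmt2, Atf5, Ddit3 and Psat1 followed at means of 35.7, 32.5, 29.3, 20.6, 19.1 and 16.4 FPKM, and each overlapped in range with its neighbour. Sesn2 (7.73 FPKM) and Chac1 (5.50 FPKM) came next and overlapped with each other, and Trib3 was the least abundant at 1.77 FPKM.

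The ratio of each member to Atf4 within a library removes any factor that scales a whole library. It does not remove the trend with exon length for genes of another length than Atf4 (2358 exon bases), such as Psat1 (4254 exon bases). This ratio was chosen after the values were seen, and it is given as a description. Phgdh stood at 32.0, 29.3 and 29.6% of the Atf4 level in knockout libraries, against 21.4, 16.2 and 16.7% in WT libraries. On this scale KO replicate 1 no longer stood out. Psat1 stood at 12.6, 14.1 and 14.6% in knockout and 11.2, 6.67 and 9.08% in WT libraries, and Shmt2 at 22.9, 25.0 and 21.8% in knockout and 19.3, 13.2 and 19.0% in WT libraries. Chac1 stood at 2.28, 2.90 and 2.67% in knockout and 6.59, 5.10 and 4.06% in WT libraries, and Ddit3 at 11.4, 13.4 and 10.2% in knockout and 14.8, 14.1 and 15.6% in WT libraries. Atf5 stood at 12.2 to 13.6% in knockout and 13.6 to 16.6% in WT libraries, below in all knockout libraries by a margin smaller than this rounding, while Asns, Trib3 and Sesn2 overlapped. All knockout ratios lay above all WT ratios in 3 of these 9 members and in 2.93% of all genes tested. All lay below them in 3 members and in 17.7% of genes tested. The 3 members above are the same that lay above in FPKM, where 14.7% of genes tested did. Every gene was divided by Atf4, which averaged 155 FPKM in knockout and 136 FPKM in WT libraries. Psat1 varied more between WT libraries on this scale, at 9.0 ± 2.29% beside 11.7 ± 0.27 FPKM (SD, n = 3).

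**Figure D3:**
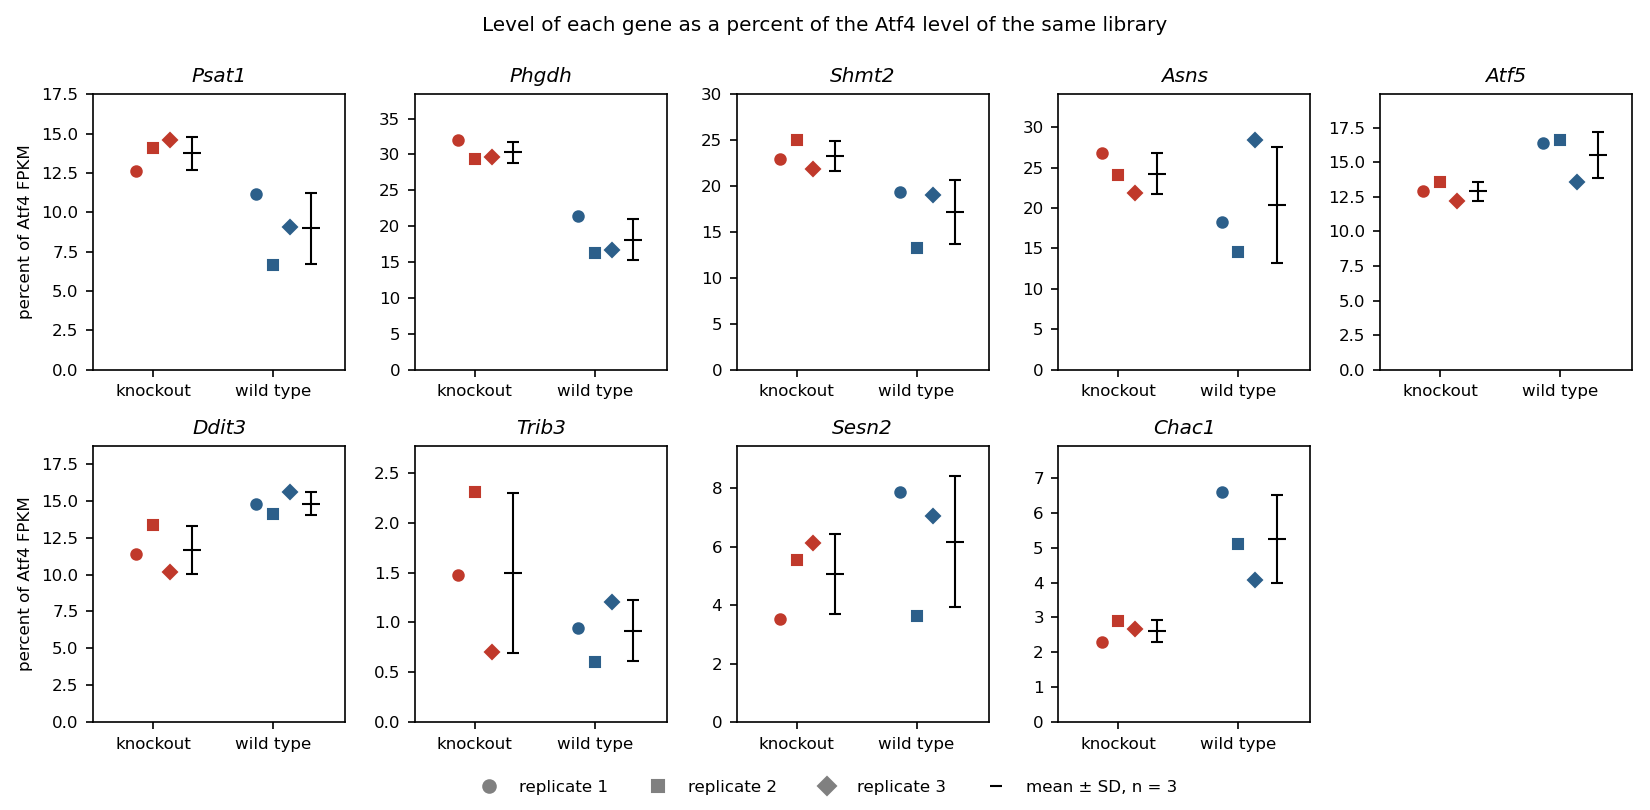
Level of the other 9 genes as a percent of the Atf4 FPKM of the same library (y axis, from 0, its own scale per gene), in the 3 knockout and 3 wild-type libraries, with the mean ± SD. Phgdh averaged 30.3% in knockout and 18.1% in wild-type libraries, and Chac1 averaged 2.62% in knockout and 5.25% in wild-type libraries.

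Across the 6 libraries, and as a description only, Pearson's r of log2(FPKM + 1) with Atf4 was 0.84 for Atf5, 0.72 for Ddit3, 0.68 for Phgdh, 0.66 for Asns, 0.64 for Shmt2, 0.46 for Psat1, 0.44 for Trib3, -0.01 for Chac1 and -0.82 for Sesn2. These values share the difference between libraries noted above. By this measure the genes most like Atf4 over the 6 libraries were Katna1 (r = 0.999), Sf3b5 (0.998), Bax, Mrpl36 and Naca (0.997 each). None of these 5 genes passed the threshold, and like Atf4 all were highest in KO replicate 1 and WT replicate 2.

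Promoter windows of RefSeq (GRCm38.p6), from 250 bases before to 50 bases after each annotated start, were searched on both strands for TGATGNAA, the core of the element bound by ATF4 with C/EBP proteins, and for TGACGTCA, the cAMP response element. The first was found in 3 of 12 windows of the 10 members, those of Chac1, Asns and Trib3, and in 2.33% of the 12217 windows of tested genes (3.97% of all windows). The second was found in 0 of 12 member windows and in 2.87% of windows of tested genes, so no member window held both. A match is a run of letters and was not tested as a binding site. The stretches around the matches are shown on the strand of the gene with the match in capitals. The matches lie 193 bases before the start in Chac1 (chr2:119350992-119351116), 23 bases before it in Asns (chr6:7693165-7693292) and 14 bases after it in Trib3 (chr2:152344011-152344106), and in Chac1 and Trib3 the capitals read as the reverse complement of the motif.
Chac1: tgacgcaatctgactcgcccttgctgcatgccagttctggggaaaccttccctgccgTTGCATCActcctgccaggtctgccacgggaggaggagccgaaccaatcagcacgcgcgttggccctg
Asns: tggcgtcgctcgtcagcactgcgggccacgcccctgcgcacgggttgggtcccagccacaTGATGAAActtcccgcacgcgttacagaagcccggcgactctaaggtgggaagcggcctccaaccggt
Trib3: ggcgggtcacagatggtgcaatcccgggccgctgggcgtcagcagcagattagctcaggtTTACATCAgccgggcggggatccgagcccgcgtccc
Of these genes with a match, Chac1 had a log2 change of -0.66, Asns of 0.48 and Trib3 of 0.53, and none passed.

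Other genes of the pathway were read from 8 lists, beside a median log2 change of 0.06 and 59.1% of changes above 0 over all genes tested. Counts of listed genes that rose or fell stand beside 1.34% of all genes tested that passed as higher and 3.82% as lower. Among enzymes of serine, glycine, folate and other amino acid metabolism, 1 of 13 tested genes rose and 0 fell (median 0.16). The gene that rose was Shmt1, the cytosolic counterpart of Shmt2, with 6.46, 5.09 and 5.79 FPKM in knockout and 3.61, 2.90 and 3.10 FPKM in WT libraries (log2 change 0.69, limma adjusted p = 0.0337). Mthfd2, which acts next to Shmt2 in mitochondrial folate metabolism, averaged 24.8 ± 4.95 FPKM in knockout and 16.2 ± 3.18 FPKM in WT libraries (SD, n = 3 each) (log2 change 0.58, limma adjusted p = 0.154). Psph, the last enzyme of serine synthesis and named here outside the rule, overlapped between groups (3.82 to 5.27 FPKM in knockout and 2.71 to 4.42 FPKM in WT libraries; log2 change 0.30, limma adjusted p = 0.425). Gpt2, a mitochondrial alanine aminotransferase and ATF4 target, had a log2 change of -0.81 (limma adjusted p = 0.113).

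Of 15 genes for eIF2, its kinases, its phosphatase subunits and the exchange factor eIF2B, 0 passed in limma, with 1 at an unadjusted p under 0.05 (20.6% of all genes tested) and a median of 0.16. The smallest p was that of Eif2s1, which encodes the phosphorylated subunit eIF2 alpha, with 25.3 to 32.9 FPKM in knockout and 17.5 to 21.6 FPKM in WT libraries (log2 change 0.53, limma adjusted p = 0.0913), followed by Eif2b3 (0.31) and Eif2s2 (0.33). The eIF2 kinase genes are named here outside the rule. Eif2ak4, which encodes GCN2, the sensor of uncharged tRNA, had a log2 change of 0.16. Eif2ak3, which encodes PERK, the sensor in the endoplasmic reticulum, had a log2 change of -0.07. Eif2ak1, the most abundant of the kinase genes at 35.9 to 47.3 FPKM, and Eif2ak2 had log2 changes of -0.14 and -0.27.

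All 20 cytosolic aminoacyl-tRNA synthetase genes had log2 changes above 0, from 0.07 to 0.47 (median 0.25), 0 passed in limma, and 6 had an unadjusted p under 0.05, beside 20.6% of all genes tested. The lowest of the 20 changes stayed above 0 with median-of-ratios scaling (0.04), with the same FPKM total (0.04) and with the exon length trend removed (0.03). These settings kept all libraries. Without KO replicate 1 and WT replicate 2, Vars had 38.2 and 38.7 FPKM in knockout and 37.9 and 41.0 FPKM in WT libraries. Yars then had 10.8 and 10.2 FPKM in knockout and 9.59 and 11.7 FPKM in WT libraries. Not all 20 changes therefore stay above 0 without those libraries. With every library kept, all knockout libraries lay above all WT libraries in 9 of the 20, beside 14.7% of all genes tested. Dars, Nars and Rars, for aspartate, asparagine and arginine, had log2 changes of 0.47, 0.47 and 0.43 (limma adjusted p = 0.0714, 0.14 and 0.119). Dars had 39.2, 35.7 and 34.7 FPKM in knockout and 24.6, 25.2 and 28.5 FPKM in WT libraries. Of 10 tested amino acid transporters 0 passed in limma, with 3 at an unadjusted p under 0.05 (20.6% of all genes tested; median 0.27). Slc36a1, a lysosomal proton-coupled transporter (log2 change 0.56), Slc38a1 (0.47) and Slc1a4, a transporter of neutral amino acids (-0.42), had the smallest p.

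Among partners of ATF4 and other stress regulators 2 of 17 tested genes rose and 0 fell (median -0.04). Cebpb, a bZIP factor that pairs with ATF4 and also drives myeloid and fat cell genes, had 36.5, 48.1 and 55.9 FPKM in knockout and 14.8, 27.8 and 12.9 FPKM in WT libraries (log2 change 1.35, limma adjusted p = 0.0495). Ero1a, named Ero1l in the annotation, an oxidase of the endoplasmic reticulum that CHOP induces, had 18.5, 19.6 and 22.5 FPKM in knockout and 12.5, 10.4 and 13.1 FPKM in WT libraries (log2 change 0.71, limma adjusted p = 0.0355). Vldlr, a lipoprotein receptor induced by ATF4, had a log2 change of -0.87 (limma adjusted p = 0.0989). The rest went both ways, as 2 genes named here outside the rule show. Atf3, a bZIP factor of the same stress response, had 1.44 to 1.99 FPKM in knockout and 2.73 to 6.21 FPKM in WT libraries (log2 change -0.80, limma adjusted p = 0.129). Ddit4 had 38.5 to 50.8 FPKM in knockout and 20.6 to 33.6 FPKM in WT libraries (log2 change 0.66, limma adjusted p = 0.113).

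The other branches of the unfolded protein response held the most calls among these lists, where 1.34% of all genes tested passed as higher and 3.82% as lower. Of 13 genes 4 rose and 0 fell (median 0.60), namely Sdf2l1 (log2 change 1.69), the main chaperone gene Hspa5 (0.90), Edem1 (0.57), which marks misfolded glycoproteins for removal, and Hsp90b1 (0.74), the last named outside the rule. Hspa5 had 249, 190 and 194 FPKM in knockout and 103, 122 and 112 FPKM in WT libraries (limma adjusted p = 0.0337). Of 9 genes of the mitochondrial unfolded protein response 0 passed in limma, with 1 at an unadjusted p under 0.05 (20.6% of all genes tested; median 0.12). Hspd1, Hspe1 and Yme1l1, which encode mitochondrial chaperones and a protease, had log2 changes of 0.48, 0.45 and 0.25.

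Of 11 genes known as partners or outputs of ATF4 in osteoblasts, 2 fell and 0 rose (median -1.07). Over all genes tested 3.82% passed as lower and 1.34% as higher. Sp7, Col1a1, Bglap and other genes of this list are also among the osteoblast and osteocyte markers below, so the lists share values. Among the genes that fell, Sp7, the osterix gene, had 6.76, 4.72 and 3.61 FPKM in knockout and 15.8, 18.3 and 9.07 FPKM in WT libraries (log2 change -1.33, limma adjusted p = 0.0472). The collagen gene Col1a1 had a log2 change of -1.16 (limma adjusted p = 0.1).

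**Figure D4:**
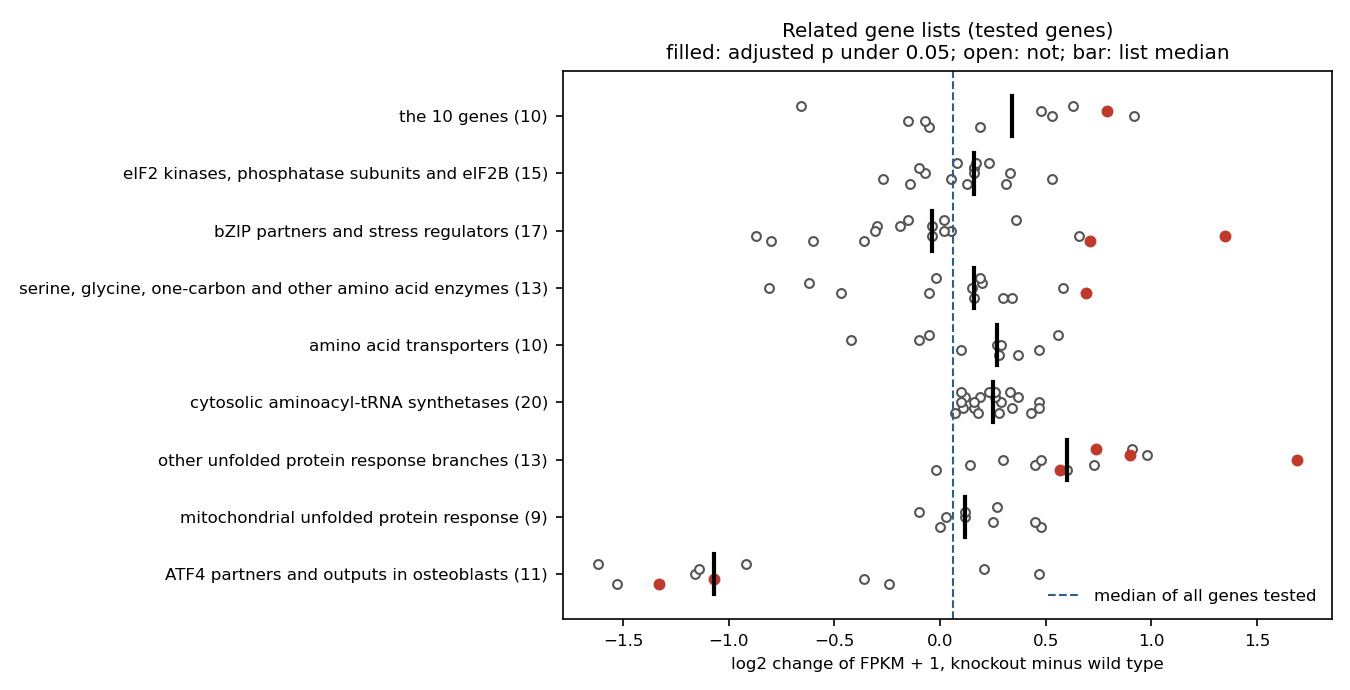
Log2 change of FPKM + 1, knockout minus wild type (x axis), of each tested gene in the 8 related lists and of the 10 genes at the top; filled points passed an adjusted p of 0.05, black bars are list medians, and the dashed line is the median of all genes tested (0.06). All 20 tRNA synthetase genes lie above 0, and most osteoblast genes lie below it.

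Cell type markers moved with the genotype as well. Their counts past the threshold stand beside 1.34% of all genes tested that passed as higher and 3.82% as lower. Summed FPKM of 6 neutrophil precursor markers ranged from 2630 to 3870 in knockout and from 1050 to 1490 in WT libraries, and 4 of the 6 rose in limma. This range is ordered as those of Psat1, Phgdh and Shmt2, also without the most abundant marker. Summed FPKM of 8 monocyte and macrophage markers ranged from 358 to 444 in knockout and from 293 to 331 in WT libraries, with 1 higher and 1 lower gene. That order rested on Ly6c2: the other 7 markers summed to 157 to 173 in knockout and 164 to 178 in WT libraries, which overlap. Ordered as those of Chac1 were the sums of 10 osteoblast and osteocyte markers (622 to 1270 in knockout and 1450 to 2730 in WT libraries, 4 of 10 fell), 10 chondrocyte markers (7.59 to 35.6 in knockout and 243 to 364 in WT libraries, 9 of 9 tested fell), 8 adipocyte markers (68.5 to 145 in knockout and 499 to 770 in WT libraries, 6 of 7 tested fell) and 8 skeletal muscle markers (1540 to 2390 in knockout and 3130 to 5610 in WT libraries, 4 of 8 fell). The sums of mature neutrophil, plasma cell, B cell and erythroid markers overlapped between groups. In limma 0, 0, 0 and 0 of 8 genes were higher and 0, 1, 2 and 0 lower. Of the mature neutrophil markers, 7 of 8 had log2 changes above 0 (median 0.40), beside 59.1% of all genes tested. All knockout libraries lay above all WT libraries in 4 of these and below in 1, beside 14.7% and 13.7% of genes tested. No marker of any list was at 0 in all libraries, and the part of these cell types in the members' values was not tested.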

How the data were processed

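RNA-seq of bone was analysed from 6 libraries, 3 per genotype, grouped by the sample titles. The authors deposited FPKM values for each library. Bowtie 0.12.2 and mm10 are named, per the submitters' processing notes. Not given in the sources used here are the counter, annotation, strand use and exact scaling. Of 54532 gene IDs, 54495 matched GENCODE M21 (mm10), which gave names, coordinates and exon lengths. FPKM times exon length gave whole reads in all libraries for 97.0% of 29600 genes above 0 and for all 10 members (tolerance 0.01 reads, in proportion above 1000 reads). These reads show depth and feed the voom alternative, and statements on them cover counting error only.

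Values were tested as log2(FPKM + 1), which understates changes of low genes, in R 4.3.3 with limma 3.58.1 (variance trend, mean FPKM of at least 1, Benjamini-Hochberg over all genes, threshold 0.05). The step was tested on simulated data with 12952 genes for this comparison. Of genes changed by 1.5-fold 22% were recovered, at 2-fold 78%, and at 4-fold and 8-fold 100%, and 15 of 165 calls were false. The simulation gave every gene the same spread between libraries (dispersion 0.024) and no exon length trend, unlike the real libraries. These shares are therefore not the power or the error rate of the real comparison. Replicates differed by more than sampling noise (14.2 to 81.3 as chi-square over degrees of freedom). The members, lists and alternatives were chosen with earlier results of these data known; voom on reads, removal of length trends and marker sums without their top gene were added after seeing the values. Named are all members, up to 3 genes per list with the smallest p, and the 5 genes most like Atf4; genes marked as outside this rule were chosen after their values were seen. A gene that the rule names is not reported here. Plots used matplotlib 3.10.9.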

Additional observations from a re-analysis of the deposited data

How the results depend on the processing

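Psat1 was the member that passed. Its log2 change stayed between 0.67 and 0.85 over 17 other settings and passed in 10 of them. The number of members past the threshold (1) was 0 without the filter on low values and 0 with the replicate block. It was 2 with median-of-ratios scaling, with scaling to the same FPKM total, with voom on recovered reads and without both KO replicate 1 and WT replicate 2, where Phgdh was added, and 4 with array weights and with the exon length trend removed, where Phgdh, Shmt2 and Chac1 were added. Leaving out single libraries gave 0 to 1. Over all genes the 703 calls became 143 without the filter, 365 at a mean FPKM of at least 5, 3354 with array weights, 127 with the replicate block, 1206 with the exon length trend removed and 62 to 418 without a library (239 without both that stood apart). Causes were not tested. Deviations of same-numbered libraries from their group means had correlations of -0.493, -0.270 and 0.158. These deviations hold the exon length trend, so the correlations cannot tell whether replicate numbers pair the libraries.

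Signs turned in 3 members, whose changes were near 0. Ddit3 reached 0.04 without KO replicate 3 (range -0.30 to 0.04), Sesn2 0.02 without KO replicate 1 and 0.05 without WT replicate 3 (range -0.19 to 0.05), and Atf5 0.04 with array weights, 0.07 without KO replicate 3 and 0.16 without WT replicate 2 (range -0.23 to 0.16). Over the same settings Phgdh ranged from 0.71 to 1.04 (adjusted p 0.00275 to 0.153), Shmt2 from 0.47 to 0.77, Chac1 from -0.83 to -0.43, Asns from 0.04 to 0.71 and Atf4 from 0.02 to 0.38. Of the other pathway genes named as risen or fallen, Sdf2l1 passed in all 17 settings, Hspa5 in 8, Ero1a, Edem1, Hsp90b1 and Sp7 in 7 of 17, Shmt1 in 6 of 16 and Cebpb in 5 of 17. Depth limits Trib3 most, with 34 reads in its lowest library.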
